A study of Homo sapiens with 18 samples.

Results

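EPHB2 and 9 other genes of the Eph receptor and ephrin family (EPHB3, EPHB4, EPHA2, EPHA4, EPHA7, EFNA1, EFNA5, EFNB1 and EFNB2) were followed across 18 RNA-seq libraries of NCI-H1299 cells, an established human lung cancer line. They are 10 of the 63677 genes in the count table and were found by their Ensembl identifiers. The list was chosen from values of these same libraries in the contrasts described here. The levels and fold changes of the 10 genes are therefore a description, given with no p-value, and the number of them past a threshold supports nothing beyond itself. Of the 10 genes, 9 were counted more than 5 times in 10 or more of the 18 libraries, which was the filter on low counts, and EPHB3 was not. A gene that is high in a few libraries only can fail this filter, so the 9 are not the whole list.

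Eph receptors are receptor tyrosine kinases and ephrins are their membrane-bound ligands, so signals pass between touching cells. Ephrin-A proteins are held in the membrane by a lipid anchor and bind mainly EphA receptors, and ephrin-B proteins span the membrane and bind mainly EphB receptors, with EphA4 able to bind both classes. Signals run forward into the cell with the receptor and in reverse into the cell with the ephrin, and both act on adhesion, repulsion and migration. In lung cancer cells EphA2 is the best known member, and in the intestine EPHB2 is a target gene of TCF and beta-catenin.

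The 6 groups had 3 libraries each. TBX2 and TBX4 cells received Flag-tagged human cDNA in a pORF plasmid, TBX3 cells HA-tagged human cDNA in pCGN, and TBX5 cells HA-tagged mouse Tbx5 in pCGN. EV cells received the empty vector, and the treatment of the cells labeled Ctl is not named in the sources used here. Which plasmid the empty vector was is not stated either, so it may not match the plasmid of every TBX group. Where groups differ in plasmid, tag, species of the cDNA or level of the TBX transcript, these cannot be told apart from the TBX itself. The transfection was transient and reached only some of the cells, so each level is a mixture of transfected and untransfected cells, and fewer cells with a transcript cannot be told apart from less transcript per cell. All groups came from 1 cell line at passage 12 to 14. Nothing states that the 3 libraries of a group came from separate cultures, so the spread between them may be technical.

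Libraries held 7365221 to 11743179 counts. One gene without a symbol, ENSG00000266658, took 10.7% of the counts in TBX3 c and 53.5% in TBX5 b. Its share was 13.2% to 18.6% in the TBX4 libraries and 22.5%, 53.5% and 52.7% in TBX5 a, b and c. TBX2 was at 27704 to 47916 counts in its own libraries, TBX3 at 135416 to 320890 and TBX4 at 85197 to 109159, and the human TBX5 gene had 1161 to 1302 counts in the libraries with mouse Tbx5 and 0 in the controls. Only those reads of mouse Tbx5 that map to the human gene are counted, so the TBX5 counts cannot be compared in size with those of the other TBXs. The library titled with the number of the TBX4 group but the name TBX5 held 85197 counts of TBX4 and 1 of TBX5, and is TBX4 c here. The epithelial keratins KRT8 and KRT18 and the mesenchymal VIM were read in all libraries, with control means of 37.7, 70.2 and 897 CPM, while KRT19, EPCAM, CDH1 and the lung markers NKX2-1, SFTPB, SFTPC and SCGB1A1 had control means of at most 0.194 CPM. The other genes of these lists, NAPSA and CLDN4, had 0.425 and 2.01 CPM. CPM are counts per 1e6 counts of library size, after scaling by the trimmed mean of M-values (TMM). Markers of fibroblasts, endothelium and leukocytes summed to at most 1.3, 0.794 and 0.621 CPM in any library, with 4, 2 and 3 genes of these lists in the table. A level of 3 counts, taken as the floor of detection, equals 0.191 to 0.595 CPM.

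The bases just upstream of the start sites are shown for EPHB2 and for the 2 ephrin-B genes EFNB1 and EFNB2. These were the listed genes past the threshold with TBX4 and TBX5 and not with TBX2 or TBX3. For EFNB1 and EFNB2, TBX4 and TBX5 were not past the threshold when set against TBX3 directly. T-box proteins bind DNA that contains the letters GGTGT, and capitals mark these letters on either strand. The sequences are from RefSeq on GRCh38.p14, a build other than the GRCh37 of the counts, and run 5′ to 3′ along the gene for 250 bases that end before the start site. They lie at chr1:22710588-22710837 on the plus strand, chrX:68828771-68829020 on the plus strand and chr13:106535663-106535912 on the minus strand.
EPHB2: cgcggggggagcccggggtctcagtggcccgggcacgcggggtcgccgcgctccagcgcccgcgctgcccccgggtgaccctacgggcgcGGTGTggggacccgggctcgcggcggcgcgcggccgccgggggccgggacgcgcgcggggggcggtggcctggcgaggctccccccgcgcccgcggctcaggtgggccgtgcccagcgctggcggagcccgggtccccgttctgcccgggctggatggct
EFNB1: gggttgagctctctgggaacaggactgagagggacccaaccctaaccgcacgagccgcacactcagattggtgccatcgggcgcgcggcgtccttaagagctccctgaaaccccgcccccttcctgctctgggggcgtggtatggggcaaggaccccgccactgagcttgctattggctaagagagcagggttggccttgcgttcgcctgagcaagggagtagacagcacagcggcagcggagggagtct
EFNB2: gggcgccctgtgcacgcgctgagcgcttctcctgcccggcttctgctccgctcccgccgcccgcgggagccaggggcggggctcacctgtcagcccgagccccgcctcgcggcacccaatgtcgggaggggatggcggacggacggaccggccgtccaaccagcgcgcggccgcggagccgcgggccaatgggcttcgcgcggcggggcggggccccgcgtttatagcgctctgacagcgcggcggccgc

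EPHB2 held 1 copy of GGTGT, with its first base at position -160 from the start site, and the upstream bases were 84.8% G and C. EFNB1 and EFNB2 held none, with a G and C content of 63.6% and 78.4%. Over windows from 250 bases before to 50 bases after a start site, on both strands, GGTGT was in 37.4% of 34943 RefSeq windows, so a copy is common. It was in at least 1 window of 4 of the 10 listed genes (EPHB2, EPHB3, EFNA1 and EFNA5), and windows were given for all 10. The longer T-box letters AGGTGTGA, which contain GGTGT, were in 0.982% of the windows and the TCF letters CTTTGAT in 2.63%, and neither was in a window of the 10 genes. These matches are letters only, and no match says nothing of binding elsewhere.

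EPHB2 (ENSG00000133216) lies on chromosome 1 at 23037332 to 23247993 on the plus strand of GRCh37 and encodes a receptor for ephrin-B ligands. Its level was 2.97 CPM in the lowest of the 6 control libraries, 4.53 in the median and 4.96 in the highest. TBX4 libraries had 8.17, 7.63 and 7.96 CPM, and TBX5 libraries had 11.1, 13.1 and 15.4 CPM. All 6 of these libraries were above all 6 controls, and the lowest TBX5 library was above the highest TBX4 library.

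TBX2 libraries had 5.05, 6.34 and 4.22 CPM of EPHB2, and TBX3 libraries had 3.93, 3.47 and 3.73 CPM. Both groups overlapped the controls. In order of the mean, EPHB2 was at 3.71 ± 0.231 CPM with TBX3, 4.01 ± 0.91 in EV, 4.65 ± 0.465 in Ctl, 5.2 ± 1.07 with TBX2, 7.92 ± 0.273 with TBX4 and 13.2 ± 2.18 with TBX5 (n = 3 libraries, SD). The neighbors in this order overlapped up to TBX2, with TBX3 and EV, EV and Ctl, and Ctl and TBX2 each sharing part of their range. The ranges of TBX2, TBX4 and TBX5 were apart from each other. In counts as deposited, EPHB2 had 26 to 73 reads in the controls, 86 to 102 with TBX4 and 66 to 100 with TBX5.

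**Figure D1:**
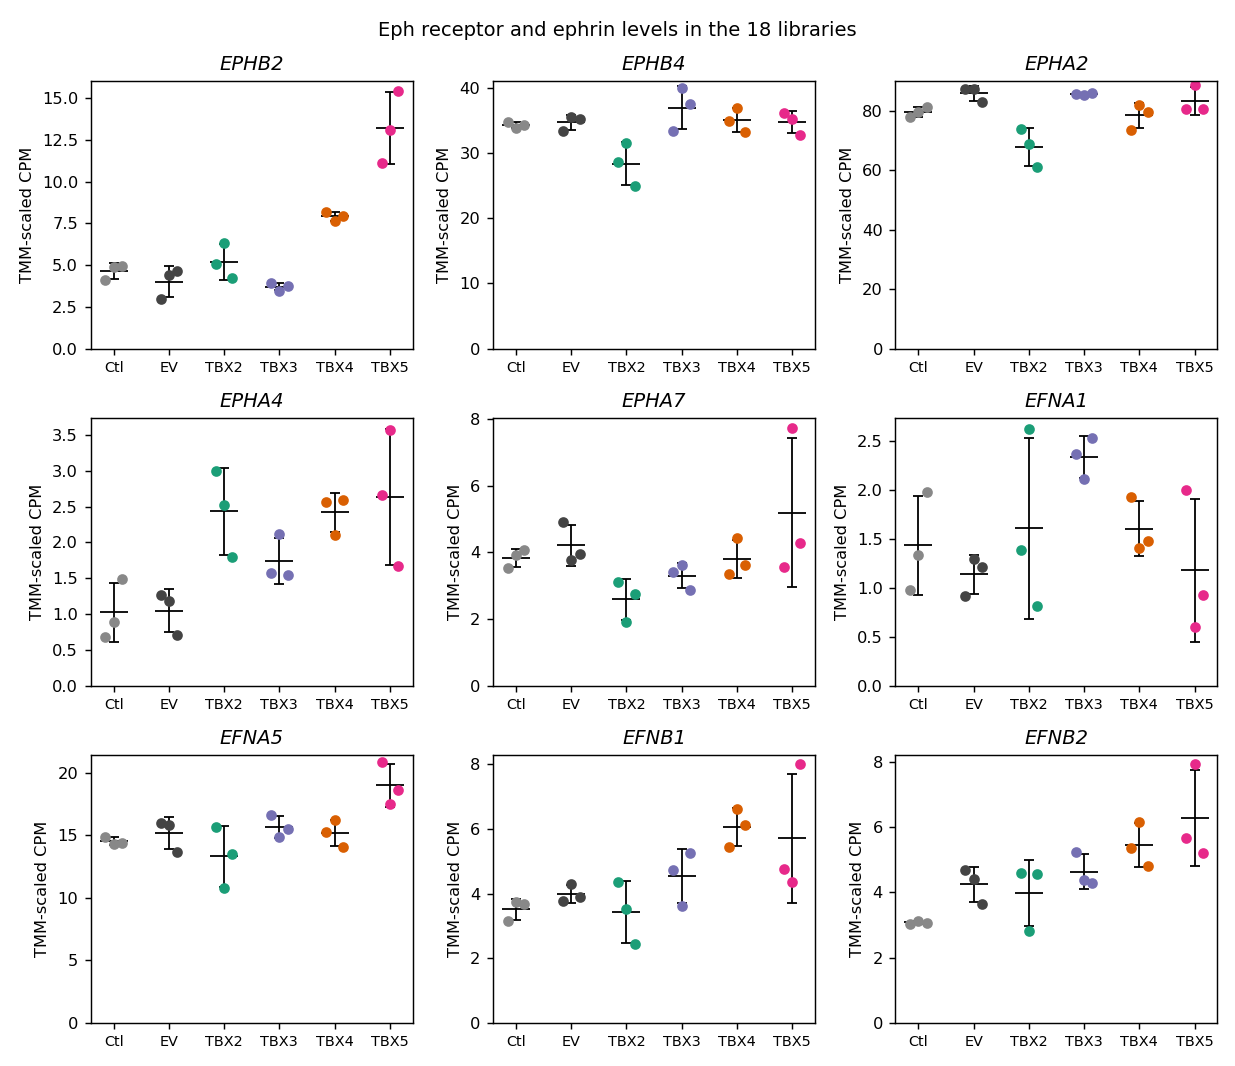
Level of 9 Eph receptor and ephrin genes in TMM-scaled CPM (vertical axis from 0) in the 18 libraries, grouped by condition. Each point is 1 library, the horizontal mark is the mean and the bar the SD (n = 3). EPHB2 in the TBX5 libraries was at 11.1 to 15.4 CPM against at most 4.96 in the controls.

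On the log2 scale EPHB2 was 0.85 ± 0.13 (SE) higher with TBX4 than in the pooled EV and Ctl controls, a 1.8-fold difference. With TBX5 it was 1.56 ± 0.15 higher, or 2.94-fold. The log2 difference was 0.28 ± 0.17 with TBX2, -0.24 ± 0.17 with TBX3 and -0.17 ± 0.19 between EV and Ctl. Both TBX4 and TBX5 passed an adjusted p under 0.1 in edgeR's quasi-likelihood test, and the other 3 comparisons did not. The 4 contrasts share the same 6 control libraries.

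The TBX groups were also set against each other. EPHB2 was 0.71 ± 0.15 higher on the log2 scale with TBX5 than with TBX4, 1.28 ± 0.17 higher with TBX5 than with TBX2 and 1.79 ± 0.17 higher with TBX5 than with TBX3. It was 0.57 ± 0.16 higher with TBX4 than with TBX2 and 1.09 ± 0.17 higher with TBX4 than with TBX3. With TBX3 it was lower than with TBX2, at -0.52 ± 0.20. EPHB2 was past the threshold in all 6 of these pairs.

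The step from TBX4 to TBX5 rests on few libraries and on the scaling. It stayed past the threshold in 7 of 9 other settings. In fits without 1 library it stayed past it in 3 of 6, with values from 0.59 to 0.85. Without TBX4 b, TBX5 b or TBX5 c it was no longer past the threshold, at 0.68, 0.70 and 0.59 on the log2 scale. When libraries were scaled by their totals, it was 0.13 and not past the threshold, while the median of all genes moved to -0.57 between these groups. Measured from that median the EPHB2 step was 0.70. With the share of ENSG00000266658 as a covariate it was 0.69 and also not past the threshold. This share was higher in each TBX5 library than in each TBX4 library, and its part in the step was not tested beyond this covariate. The EPHB2 call for TBX3 against TBX2 was lost in DESeq2 (-0.51), by library totals (-0.59), with no filter on low counts, at an adjusted p of 0.05 and without any library of either group other than TBX2 c (-0.34 to -0.56), and that for TBX4 against TBX2 was lost by library totals (0.82) and without TBX2 a (0.53) or TBX2 c (0.47).

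**Figure D2:**
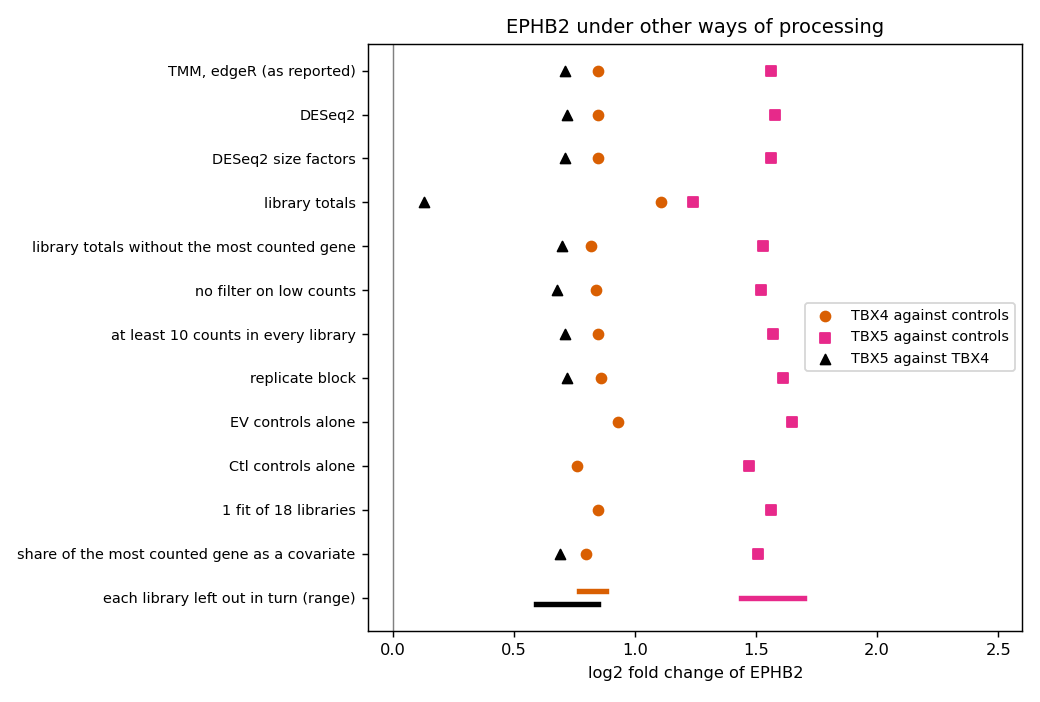
Log2 fold change of EPHB2 (horizontal axis) with TBX4 and TBX5 against the controls and between TBX5 and TBX4, under each way of processing (rows). Points are single fits and bars in the lowest row span the fits that left out 1 library. The difference from the controls ran from 0.76 to 1.11 with TBX4 and from 1.24 to 1.70 with TBX5, and the step between both fell to 0.13 with library totals.

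EPHB4 (ENSG00000196411, chromosome 7, 100400187 to 100425145) encodes the receptor that pairs with ephrin-B2. It was at 33.4 CPM in the lowest control, 34.5 in the median and 35.6 in the highest, and at 28.7, 31.5 and 25 CPM with TBX2. All 3 TBX2 libraries were below the controls, by -0.27 ± 0.07 on the log2 scale. With TBX3, TBX4 and TBX5 the difference was 0.10 ± 0.07, 0.02 ± 0.06 and 0.01 ± 0.07, none past the threshold. EPHB3 (ENSG00000182580, chromosome 3, 184279573 to 184300196), another receptor for B ephrins, had at most 3 counts in any library. It had 2 counts in all over the 6 controls and 6 over the 3 TBX5 libraries, so no fold is given.

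EPHA2 (ENSG00000142627, chromosome 1, 16450832 to 16482564) encodes the EphA receptor with the highest level here. The controls were at 78 to 87.4 CPM with a median of 82.2, and the TBX2 libraries were at 73.8, 68.8 and 61.2 CPM. All EV libraries were above all Ctl libraries, by 0.11 ± 0.06 on the log2 scale and not past the threshold. TBX2 lay below all controls, by -0.28 ± 0.07 on the log2 scale, and the other 3 groups were within 0.08 of the controls in either direction. EPHB4 and EPHA2 therefore each lost about the same share of their level with TBX2, at 0.831 and 0.824 times the controls. For both, library totals left the TBX2 difference at -0.26 but not past the threshold. The summed level of 6 epithelial markers was 68.7 to 76.6 CPM with TBX2 and 78.8 to 87.4 with TBX3, against 98.6 to 117 in the controls. That of 4 mesenchymal markers, mostly VIM, was 815 to 878 CPM with TBX2 and 868 to 899 with TBX3, against 967 to 1084 in the controls. Of the 4, FN1 and ZEB1 were above all controls with TBX2, with means of 49.1 and 51.5 CPM against 37.4 and 43.3. FN1 was also above all controls with TBX4 and TBX5, with means of 50 and 53 CPM, and ZEB1 with TBX3, at 50.7 CPM. The summed levels of both marker sets overlapped the controls with TBX4 and with TBX5. The part of these markers in the TBX2 and TBX3 differences of the Eph and ephrin genes was not tested.

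EPHA4 (ENSG00000116106, chromosome 2, 222282747 to 222438922) encodes a receptor that binds ephrins of both classes. Its level was low, at 0.686 CPM in the lowest control, 1.03 in the median and 1.49 in the highest. It was at 2.99, 2.52 and 1.79 CPM with TBX2 and at 1.57, 2.11 and 1.55 with TBX3. TBX4 libraries had 2.56, 2.1 and 2.59 CPM and TBX5 libraries 2.66, 3.57 and 1.67 CPM. All 12 TBX libraries were above all 6 controls. The log2 difference was 1.30 ± 0.28, 0.75 ± 0.29, 1.26 ± 0.24 and 1.38 ± 0.30 with TBX2, TBX3, TBX4 and TBX5, and EPHA4 alone among the 9 genes was past the threshold in all 4. The counts behind it were 7 to 15 in the controls and 9 to 32 in the TBX libraries. With TBX3 the call was held in 1 of 10 other ways of processing with an adjusted p and in 2 of 9 fits that left out a library, with values from 0.62 to 0.89. With TBX5 it was lost by library totals alone among those settings (1.08). With TBX3 it was lost without Ctl a, Ctl b, EV b, EV c or any 1 of the TBX3 libraries.

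EPHA7 (ENSG00000135333, chromosome 6, 93949738 to 94129405) encodes another EphA receptor, known for roles in brain development. It was at 3.53 to 4.91 CPM in the controls, with a median of 3.93, and at 3.1, 1.91 and 2.76 CPM with TBX2. The 3 TBX2 libraries were below the controls, by -0.65 ± 0.20 on the log2 scale, and without TBX2 b the value was -0.44 and not past the threshold. By library totals it was -0.63 and also not past it. TBX5 libraries spread from 3.55 to 7.74 CPM and overlapped the controls.

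EFNA1 (ENSG00000169242, chromosome 1, 155100352 to 155107375), whose product is a ligand of EphA2, was at 0.914 CPM in the lowest control, 1.25 in the median and 1.98 in the highest. TBX3 libraries had 2.36, 2.11 and 2.53 CPM, all above the controls, at 0.88 ± 0.24 on the log2 scale. Without TBX3 c this was 0.79 and not past the threshold, nor was it by library totals (0.82) or against Ctl alone (0.73). TBX2 and TBX5 libraries ran from 0.812 to 2.62 and from 0.595 to 2 CPM, across the whole range of the controls.

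EFNA5 (ENSG00000184349, chromosome 5, 106712595 to 107006638), an ephrin-A known for axon guidance, was at 13.7 to 16 CPM in the controls, with a median of 14.6. TBX5 libraries had 20.9, 17.5 and 18.6 CPM, above all controls. The log2 difference was 0.38 ± 0.10, the smallest that was past the threshold with TBX5 among the 9 genes. Without TBX5 a it was 0.29 and not past it, and by library totals it was 0.08, or 0.39 from the median of all genes.

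EFNB1 (ENSG00000090776, chromosome X, 68048864 to 68062003) encodes ephrin-B1, a ligand of EphB2. It was at 3.14 CPM in the lowest control, 3.75 in the median and 4.29 in the highest. All EV libraries were above all Ctl libraries, by 0.18 ± 0.18 on the log2 scale and not past the threshold. TBX4 libraries had 5.45, 6.62 and 6.11 CPM and TBX5 libraries 4.77, 4.37 and 8 CPM, all above the controls. The log2 difference was 0.69 ± 0.14 with TBX4 and 0.57 ± 0.19 with TBX5. With TBX5 the value fell to 0.30 without TBX5 c, which was not past the threshold. It was also not past it without Ctl a (0.53), by library totals (0.25), against EV alone (0.49) or against Ctl alone (0.67). TBX2 and TBX3 differed from the controls by -0.09 ± 0.19 and 0.32 ± 0.16, not past the threshold. Against TBX2 directly, TBX4 and TBX5 were 0.77 ± 0.20 and 0.66 ± 0.23 higher, past the threshold. Against TBX3 the values were 0.37 ± 0.18 and 0.25 ± 0.21, not past it.

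EFNB2 (ENSG00000125266, chromosome 13, 107142093 to 107188010) encodes ephrin-B2, the ligand of EphB4. The Ctl libraries had 3.04, 3.11 and 3.07 CPM and the EV libraries 4.68, 4.4 and 3.64 CPM, so all EV libraries were above all Ctl libraries, by 0.43 ± 0.19 on the log2 scale and not past the threshold. TBX4 libraries had 5.37, 6.15 and 4.81 CPM and TBX5 libraries 5.66, 7.94 and 5.21 CPM, above both kinds of control. Against the pooled controls the log2 difference was 0.59 ± 0.16 with TBX4 and 0.76 ± 0.19 with TBX5. Against EV alone it was 0.40 and 0.57, not past the threshold in either case, and against Ctl alone it was 0.83 and 1.00. It was also not past it without TBX4 b (0.49) or TBX5 b (0.60). Nor was it with TBX5 by library totals (0.44), or with TBX4 in the fit with the ENSG00000266658 covariate (0.55). TBX2 and TBX3 differed from the pooled controls by 0.10 ± 0.20 and 0.34 ± 0.17, not past the threshold. Against TBX2 directly, TBX5 was 0.66 ± 0.21 higher and past it, and TBX4 0.49 ± 0.19 and not past it. Against TBX3 the TBX4 and TBX5 values were 0.26 ± 0.18 and 0.42 ± 0.20, not past it. Of the exon bases of EFNB2, 36.4% overlap a gene on the other strand (ENSG00000284966) in the annotation used here, and counting without strand cannot tell their reads apart. EPHA4 shares 4.67% of its exon bases with a gene on the other strand, EPHB4 1.07% and EPHA7 0.893%. EPHB2 shares 0.272% of its exon bases with a microRNA gene, and EPHB3, EPHA2, EFNA1, EFNA5 and EFNB1 share none.

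**Figure D3:**
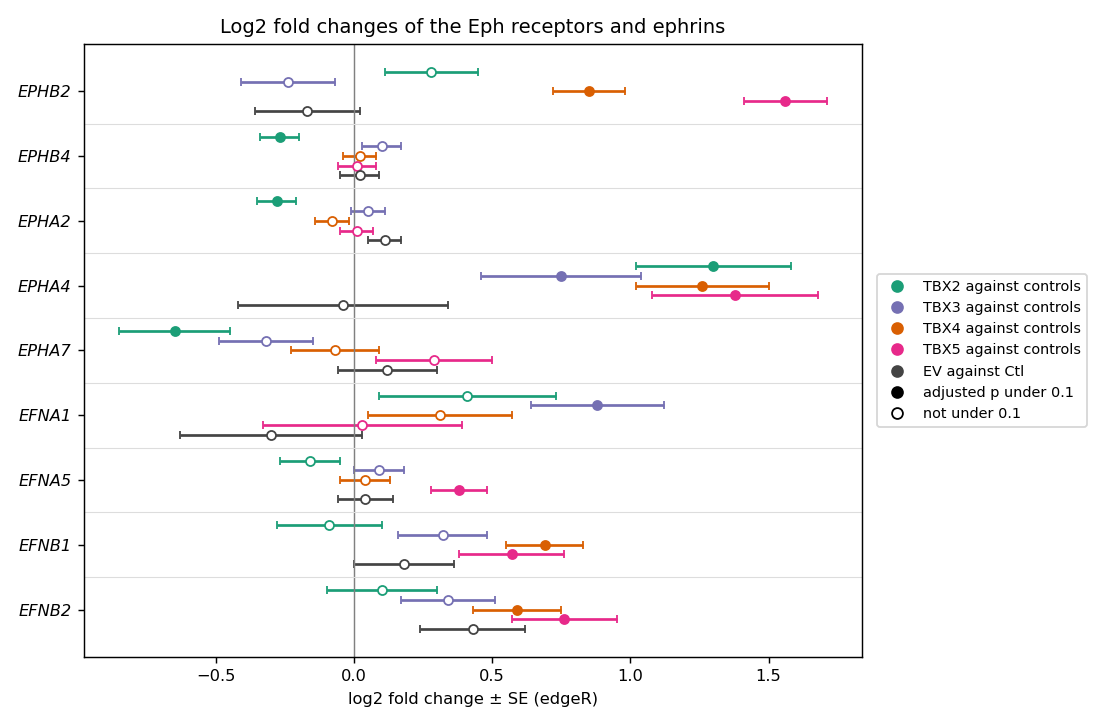
Log2 fold change ± SE (horizontal axis) of the 9 genes for each TBX group against the 6 controls (n = 3 against 6) and of EV against Ctl (n = 3 against 3). Filled points were past an adjusted p of 0.1. EPHB2 reached 1.56 with TBX5 and EPHA4 0.75 to 1.38 with all 4 TBXs.

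By count, 4 of the 9 genes were past the threshold with TBX2, where 32.6% of all 15576 tested genes were. Of these, EPHA4 was higher and EPHA7, EPHB4 and EPHA2 lower, with 17% of all genes higher and 15.6% lower. With TBX3, EFNA1 and EPHA4 were higher and none lower, against 14.9% of all genes in either direction, 8.47% higher and 6.4% lower. DESeq2 gave neither an adjusted p there. With TBX4, EPHA4, EFNB2, EFNB1 and EPHB2 were higher and none lower, against 13% of all genes, 6.97% higher and 6.07% lower. With TBX5 the same 4 genes and EFNA5 were higher and none lower, against 12.7% of all genes, 6.55% higher and 6.12% lower. The median log2 difference of the 9 genes was -0.09, 0.10, 0.31 and 0.38 with TBX2, TBX3, TBX4 and TBX5, beside -0.01 to 0.00 over all genes. Since the list was chosen on these contrasts, nothing is read from these shares.

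Between EV and Ctl, edgeR called 0 of the 9 genes, with 1 at an unadjusted p under 0.05 and 0 by DESeq2, and 0.385% of all genes were called. Between TBX groups, 3 of the 9 genes were called for TBX3 against TBX2 (15.5% of all genes), 4 for TBX4 against TBX2 (12.3%) and 7 for TBX5 against TBX2 (12.1%). EPHB2 was the 1 gene called for TBX4 against TBX3 (9.97%), TBX5 against TBX3 (7.41%) and TBX5 against TBX4 (0.539%). Of the 7 genes in TBX5 against TBX2, all were higher with TBX5, though EPHB4 and EPHA2 came to -0.04 and -0.05 by library totals.

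Levels of different genes can be compared only per length, as RPKM, here the CPM divided by the kilobases of annotated exons. In the controls EPHA2 was at 20 ± 0.945 RPKM and EPHB4 at 5.36 ± 0.129, followed by EFNA5 at 2.59 ± 0.158 and EFNB1 at 1.13 ± 0.113 (SD, n = 6). EFNB2 at 0.731 ± 0.145 and EFNA1 at 0.593 ± 0.176 overlapped within their spread. EPHB2, at 0.346 ± 0.0588, stood eighth of the 22 family genes, within the spread of EFNA4 (0.447 ± 0.21), EPHA5 (0.323 ± 0.0648) and EFNB3 (0.282 ± 0.0743). EPHA7 was at 0.244 ± 0.0288 and EPHA4 at 0.137 ± 0.0431 RPKM. With TBX5 the mean of EPHB2 was 1.06 RPKM, still below EFNB1 at 1.73, EPHB4 at 5.39 and EPHA2 at 20.1 in the same libraries. The lengths come from a newer annotation than the one used for counting, so these levels are approximate.

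**Figure D4:**
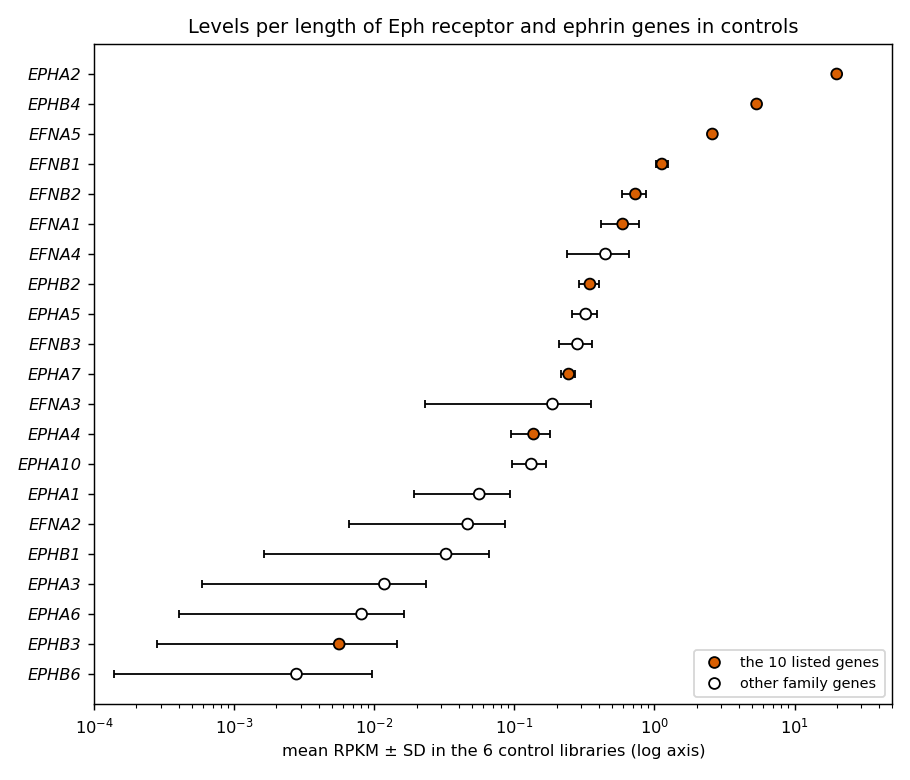
Mean RPKM ± SD (horizontal log axis) of the Eph receptor and ephrin genes in the 6 control libraries, with the 10 listed genes filled. EPHA8, at 0 counts, is not drawn, and lower bars that would reach 0 or less are shortened to fit the log axis. EPHA2 stood at 20 and EPHB2 at 0.346 RPKM.

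Of the 12 other human Eph and ephrin genes, 3 were tested. EPHA5, an EphA receptor of the nervous system, was at 3.18 ± 0.637 CPM in the controls (SD, n = 6) and 2.22 ± 0.606 with TBX2 (SD, n = 3). It fell by 0.58 ± 0.23 (SE) on the log2 scale, and edgeR's adjusted p was 0.0686, although the ranges overlapped and 5.44% of its exon bases are shared with an antisense gene. DESeq2 gave 0.141, and the call was lost with EV controls alone (0.107) or Ctl controls alone (0.162). It was also lost without Ctl c (0.126), EV c (0.121), TBX2 a (0.242) or TBX2 b (0.228). With TBX3, TBX4 and TBX5, EPHA5 had adjusted p-values of 0.959, 0.787 and 0.949.

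EPHA10, a receptor thought to lack kinase activity, differed by 0.58 ± 0.28 with TBX2, where all 3 libraries were above the controls (edgeR's adjusted p = 0.14), and 0.57 ± 0.32 with TBX5 (adjusted p = 0.314). EFNB3, another ephrin-B gene, differed by 0.25 ± 0.30 with TBX4 (edgeR's adjusted p = 0.69) and 0.32 ± 0.34 with TBX5 (adjusted p = 0.654). So of the 3 ephrin-B genes, EFNB3 was the one not past the threshold with TBX4 or TBX5, and its SE was about as large as its difference. In TBX3, TBX4 and TBX5, edgeR called 0 of the 3 other genes, with 0 at an unadjusted p under 0.05 and 0 by DESeq2. The other 9 genes were below the filter, at no more than 11 counts in any library. EPHA8, which lies within 500 kb of EPHB2 on chromosome 1, had 0 counts in the controls, 5 over the TBX4 libraries and 2 over the TBX5 libraries.

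The other genes within 500 kb of EPHB2 numbered 32, of which 10 were tested. With TBX2, 4 of them were past the threshold, with TBX3 and TBX4 2 each and with TBX5 1, beside 32.6%, 14.9%, 13% and 12.7% of all tested genes. ZNF436, a zinc finger gene named here after its values were seen, was higher in all 4 contrasts. The median log2 difference of the 10 genes was 0.03 with TBX4 and -0.07 with TBX5.

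Among the 5 tested genes whose level over the 18 libraries was most like that of EPHB2 were RNF167, KIFC3, NPTX1 and SERPINI1, with Pearson's r of 0.92, 0.91, 0.90 and 0.89 among 15575 genes. The points share the libraries and their scaling, and r is a description. SERPINI1, which encodes neuroserpin, was at 2.17 ± 0.477 CPM in the controls (SD, n = 6), 5.52 ± 0.713 with TBX4 and 9.47 ± 1.36 with TBX5 (SD, n = 3). NPTX1, a secreted neuronal pentraxin, was at 0.627 ± 0.157, 1.48 ± 0.449 and 8.98 ± 0.767 CPM in the same order. Within the family the likeness to EPHB2 was closest for EFNB1 (r = 0.61), EPHA4 (0.54) and EFNB2 (0.52), and it was 0.04 for EPHB4 and -0.02 for EPHA2. EFNB1, EPHA4 and EFNB2 ranked only 478, 825 and 917 among the 15575 genes.

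Genes that carry or limit Eph and ephrin signals were described from lists of pathway genes. Of 27 tested adaptors, kinases and phosphatases of forward signaling, 8 were past edgeR's threshold with TBX2 (3 higher, 5 lower), 4 with TBX3 (3 higher, 1 lower), 2 with TBX4 (both lower) and 6 with TBX5 (3 higher, 3 lower). Over all tested genes the shares were 32.6%, 14.9%, 13% and 12.7%. DESeq2 called 6, 4, 2 and 3 of the 27 genes with TBX2, TBX3, TBX4 and TBX5. Nothing is read from these counts. SHC1, an adaptor that binds activated receptors, was the 1 listed signaling gene that was lower and past the threshold with every TBX, and none was higher with every TBX. It was at 113 ± 4.99 CPM in the controls (SD, n = 6) and at 76.6 ± 5.59, 99.1 ± 1.83, 97.8 ± 2.79 and 92.1 ± 2.38 CPM with TBX2, TBX3, TBX4 and TBX5 (SD, n = 3). It fell by 0.56 ± 0.06, 0.19 ± 0.06, 0.21 ± 0.05 and 0.29 ± 0.06 (SE) on the log2 scale. EdgeR's adjusted p was 8.03e-07, 0.0297, 0.0146 and 0.00296. By library totals the TBX3 value (-0.28) was not past the threshold. Against Ctl alone the TBX3 and TBX4 values were -0.14 and -0.16 and not past the threshold, and by library totals the TBX4 value turned to 0.05.

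RGS3, which joins ephrin-B to G protein signals, rose with TBX3 by 0.39 ± 0.11 (edgeR's adjusted p = 0.028), and fell by 0.48 ± 0.15 with TBX5 (adjusted p = 0.0521). In the controls it was at 11.2 ± 1.59 CPM in Ctl and 14.7 ± 0.31 in EV (SD, n = 3), a difference close in size to that with TBX3. CBLB is a ubiquitin ligase that helps to remove active receptors. It rose by 0.49 ± 0.16 with TBX5 (edgeR's adjusted p = 0.0682) and by 0.41 ± 0.16 with TBX2 (0.0564). The CBLB levels overlapped the controls in both groups, as did those of RGS3 with TBX5.

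TIAM1, an exchange factor that activates Rac and can act downstream of Eph receptors and ephrin-B ligands, was at 21.6 ± 1.99 CPM in the controls (SD, n = 6). TBX4 libraries were at 25 to 27.4 CPM and TBX5 libraries at 32.3 to 39.5 CPM, both above the highest control at 24.6. TIAM1 rose by 0.26 ± 0.08 with TBX4 (edgeR's adjusted p = 0.0319) and by 0.70 ± 0.09 with TBX5 (adjusted p = 1.91e-05), and fell by 0.36 ± 0.09 with TBX2 (adjusted p = 0.0072). The TBX4 call was lost without TBX4 b (0.23), with Ctl controls alone (0.22) and with the share of ENSG00000266658 as a covariate. RAC1 is the GTPase on which TIAM1 acts. It fell by 0.24 ± 0.05 with TBX4 (edgeR's adjusted p = 0.00471), by 0.25 ± 0.06 with TBX5 (0.00737) and by 0.23 ± 0.06 with TBX2 (0.00949). With TBX3 the RAC1 value was -0.16 ± 0.06, not past the threshold (edgeR's adjusted p = 0.105).

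CHN2, a GTPase-activating protein for Rac, rose by 0.52 ± 0.18 with TBX2 (edgeR's adjusted p = 0.031). LIMK2, a kinase that acts on cofilin, rose by 0.41 ± 0.12 with TBX2 (adjusted p = 0.0149). Its relative LIMK1 fell by 0.24 ± 0.08 with TBX2 (edgeR's adjusted p = 0.0314) and by 0.21 ± 0.07 with TBX3 (0.0655). In both groups the LIMK1 levels overlapped those of the controls. WASL, which starts actin branching, rose by 0.38 ± 0.07 with TBX2 (edgeR's adjusted p = 0.00055) and by 0.28 ± 0.07 with TBX3 (0.00786).

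Of 7 tested genes of receptor and ephrin shedding, edgeR called 0 with TBX2 and 0 with TBX4, with 0 and 1 at an unadjusted p under 0.05 and 0 by DESeq2 in both. With TBX3, ADAM17 was called, and with TBX5 NCSTN (higher) and APH1A (lower) were, while DESeq2 called 0 with TBX3. Of 7 tested TCF target genes and Wnt regulators, LEF1 was called with TBX2 (lower), MYC with TBX3 (higher) and TCF7 with TBX5 (higher). ADAM17, NCSTN, APH1A, MYC and TCF7 are named after their values were seen. Beside these counts of at most 2 of 7, the calls over all tested genes were 32.6%, 14.9%, 13% and 12.7% with TBX2, TBX3, TBX4 and TBX5. LEF1 fell by 0.81 ± 0.18 with TBX2 (edgeR's adjusted p = 0.00205), from 4.7 ± 0.623 CPM in the controls (SD, n = 6) to 2.62 ± 0.298 (SD, n = 3). With TBX4, edgeR called 0 of the 7 TCF and Wnt genes, with 0 at an unadjusted p under 0.05 and 0 by DESeq2. Their median log2 difference was -0.09. With TBX5, edgeR called 1 of the 7, with 3 at an unadjusted p under 0.05 and 1 by DESeq2, and the median was -0.02. The part of TCF in the EPHB2 differences was not tested.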

How the data were processed

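RNA-seq was made from total RNA of NCI-H1299 cells. Paired-end reads were mapped with STAR 2.3.0 on GRCh37. The authors deposited raw counts for each Ensembl gene, made by featureCounts with its defaults, which ignore strand. Totals were 7365221 to 11743179 counts per library, and intervals cover counting and replicate spread only.

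Each TBX was compared with the 6 pooled controls by the quasi-likelihood test of edgeR 4.0.16 (R 4.3.3) with TMM scaling, on the 15576 genes counted more than 5 times in 10 or more of the 18 libraries. P-values were adjusted over all tested genes by Benjamini-Hochberg, with a threshold of 0.1. EV was compared with Ctl, and the 6 pairs of TBX groups came from a joint fit. SEs were derived from the log2 fold change and F. RPKM used exon lengths of GENCODE on GRCh37. Promoter letters came from RefSeq windows on GRCh38.p14.

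The members and lists were chosen with earlier results of these data known. Named genes are the 22 family genes, signaling genes past the threshold in all 4 contrasts or among the 2 with the largest change in each direction of a contrast, and the 5 genes most correlated with EPHB2. Of these, 1 gene is not reported here, nor are the counts of 1 list. Scripts were tested on simulated data. Alternatives were DESeq2 1.42.0, its size factors, library totals, other filters, either control alone, a replicate block, a covariate and left-out libraries.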

Additional observations from a re-analysis of the deposited data

Results flagged for a closer look

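EFNB3, an ephrin-B gene, stood out in 1 control library. Ctl c held 1.39 CPM of EFNB3 while the 5 other control libraries held 0.751 to 0.882 CPM, and its gap to the nearest library was 0.794 of the whole range. The 6 controls were examined for 12 tested family genes, of which chance marks about 1 in 20. The counts of EFNB3 in the controls were 7 to 14, and the cause was not tested.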

How the results depend on the processing

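EPHB2 stayed past the threshold with TBX4 and with TBX5 in all 12 other settings and all 9 fits without 1 library each, with log2 differences of 0.76 to 1.11 and 1.24 to 1.70. Low counts limit EPHA4 and EFNA1, and at this depth the 9 untested other genes and EPHB3 cannot be compared.

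The number of the 9 listed genes past the threshold moved as follows. By library totals it went from 4 to 1 with TBX2, from 2 to 0 with TBX3, from 5 to 1 with TBX5, from 3 to 0 for TBX3 against TBX2, from 4 to 0 for TBX4 against TBX2, from 7 to 1 for TBX5 against TBX2 and from 1 to 2 for TBX5 against TBX4. For TBX5 against TBX4 the 2 were EPHB4 (-0.57) and EFNB1 (-0.69), both lower, and the EPHB2 call was lost. The median of all genes was -0.57 for that pair. Library totals moved the median of all genes to 0.25 with TBX4 and -0.31 with TBX5. They gave 2756 genes higher and 33 lower with TBX4 against 1086 and 945 with TMM. With library totals less the most counted gene the split with TBX3 was 867 higher and 1709 lower, against 1319 and 997, with TBX4 895 and 1242, and with TBX5 795 and 1212, against 1021 and 954. With TBX3 the 2 calls became 0 with DESeq2, which left both adjusted p-values undefined, and 0 with at least 10 counts in every library, which left 7 of the genes and removed both. They became 1 with DESeq2 size factors, without the most counted gene, with no filter, with EV alone, in 1 fit of all libraries or at a threshold of 0.05, where EFNA1 was the gene called. With Ctl alone both were lost and EFNB2 was called, which also gave 1. With EV alone the 5 calls with TBX5 became 3. With the share of ENSG00000266658 as a covariate, the 1 call between TBX5 and TBX4 became 0. Leaving out 1 library gave 0 to 2 calls with TBX3, 1 to 5 for TBX4 against TBX2, 4 to 6 for TBX5 against TBX2, 1 to 3 for TBX5 against TBX3 and 0 to 1 for TBX5 against TBX4. Apart from these constructions, the cause was not tested.

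The replicate letters did not pair the libraries (mean correlation of deviations 0.00043 for the same letter, lowest -0.101, against -0.000185 between letters). With the letter as a replicate block, 1 of the 2 listed genes with TBX3 stayed past the threshold, and counts over all genes went from 5079 to 4739, 2316 to 2364, 2031 to 1691 and 1975 to 1874.

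The sign of some values turned. By library totals SHC1 and RAC1 with TBX4 became 0.05 and 0.03, EPHA5 became -0.04, 0.15 and -0.27 with TBX3, TBX4 and TBX5, and EPHA10 became -0.05 and 0.22 with TBX3 and TBX4. With TBX3, EPHA5 was -0.02 and EPHA10 -0.03 without the most counted gene in the totals, and EPHA5 was -0.01 with its share as a covariate. With Ctl alone EFNB3 with TBX2 was -0.07 and EPHA10 with TBX3 was -0.07, and with EV alone EFNB3 with TBX3 was 0.03 and EPHA10 with TBX4 was 0.05. Without 1 library, EPHA5, EPHA10 and EFNB3 with TBX3 ran from -0.10 to 0.12, -0.17 to 0.22 and -0.51 to 0.47, EPHA10 and EFNB3 with TBX4 from -0.14 to 0.09 and 0.00 to 0.48, and EPHA5 with TBX5 from -0.05 to 0.10.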
